A study of Rattus norvegicus with 6 samples.

Results

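Cxcl9, Cxcl10 and Cxcl11 encode the 3 chemokines that share the receptor CXCR3, and their mRNA was measured in 6 RNA-seq libraries of HEI-OC1 cells. The members were taken by gene symbol from a table of read counts for 18718 genes, where each of the 3 symbols has 1 row. The trio was chosen by its values in this same comparison, siHnrnpd against control over the same 6 libraries, so its differences between groups are given as a description and with no test. HEI-OC1 is an established auditory line from the organ of Corti, and the study asked how transcripts and splicing respond when AUF1, an RNA-binding protein encoded by Hnrnpd, is reduced. One group of 3 libraries received an siRNA against Hnrnpd (genotype "AUF1 knock down", called siHnrnpd 1 to 3). The other 3 libraries carry the genotype "Control" (called control 1 to 3). Their titles (SiNC) and column names (siCtrl) read as a control siRNA, so they are not taken as untreated cells. All 6 libraries come from the same line in serum-containing medium, and the labels mention no interferon, no stimulus and no time after transfection. The labels also do not say whether replicates are separate cultures, so spreads and p-values describe these libraries and may be technical.

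CXCL9, CXCL10 and CXCL11 are small secreted proteins that draw activated T cells and natural killer cells towards inflamed tissue. Their genes are classic interferon targets: interferon signals reach them through JAK kinases and transcription factors such as IRF1 and IRF9, and NF-kB adds to the response of Cxcl10. Many chemokine mRNAs carry AU-rich elements in their tails, which proteins such as AUF1 bind. HEI-OC1 is, in general knowledge, of mouse origin and derives from the Immortomouse, in which an interferon-inducible MHC promoter drives a T antigen transgene. The labels name rat as the organism and the reads were assigned to rat genes. Which species the reads came from was not tested, and levels compared between genes carry that limit.

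The 3 genes lie side by side on rat chromosome 14, on 1 strand. The stretch before each start is shown because it is where the best known interferon and NF-kB control of these genes is placed. The sequences are 250 bases up to the base before the RefSeq start, from the rat assembly GRCr8, which is not the build named for the counts, and all are on the plus strand. Capitals mark every match to any of 4 motifs searched on both strands: the interferon-stimulated response element (ISRE; GAAA, any 2 bases, GAAA), the STAT element (GAS, TTCNNNGAA), the NF-kB consensus and TATAAA. The exact NF-kB pattern is not given here. Close variants outside it, such as gggaacttcc in the Cxcl10 window, are left in lower case.
Cxcl9, chr14:16006916-16007165: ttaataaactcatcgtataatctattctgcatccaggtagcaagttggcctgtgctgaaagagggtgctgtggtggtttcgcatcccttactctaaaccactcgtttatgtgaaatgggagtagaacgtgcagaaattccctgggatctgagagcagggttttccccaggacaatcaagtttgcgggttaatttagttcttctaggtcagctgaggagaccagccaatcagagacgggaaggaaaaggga
Cxcl10, chr14:15988816-15989065: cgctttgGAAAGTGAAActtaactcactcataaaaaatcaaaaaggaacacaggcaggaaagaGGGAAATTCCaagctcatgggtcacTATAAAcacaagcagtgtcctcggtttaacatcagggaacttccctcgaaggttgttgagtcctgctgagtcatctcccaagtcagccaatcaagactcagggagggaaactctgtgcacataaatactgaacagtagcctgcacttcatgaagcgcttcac
Cxcl11, chr14:15973478-15973727: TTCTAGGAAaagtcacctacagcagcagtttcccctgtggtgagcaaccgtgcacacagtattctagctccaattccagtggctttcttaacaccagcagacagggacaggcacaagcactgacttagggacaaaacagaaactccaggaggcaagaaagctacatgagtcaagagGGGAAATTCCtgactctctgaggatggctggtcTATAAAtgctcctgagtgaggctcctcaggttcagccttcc

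Cxcl10 held the ISRE letters GAAAGTGAAA from base 243 to base 234 before its start, and NF-kB letters GGGAAATTCC from base 187 to base 178. Cxcl11 held the identical NF-kB letters from base 74 to base 65, a GAS match TTCTAGGAA from base 250 to base 242, and TATAAA from base 41 to base 36. The TATAAA match of Cxcl10 lay further out, from base 162 to base 157. The window of Cxcl9 held none of the 4 motifs, which says only that these letters are not in these 250 bases. No match overlapped another. Among 33469 promoter windows of the same length in the table, 3.41% held the ISRE letters, 7.67% the GAS letters, 3.54% the NF-kB consensus and 12.9% TATAAA. For comparison, the ISRE letters stood in 12 of 16 windows found for a list of type I interferon response genes and in 9 of 16 found for a list of type II interferon response genes. In the same order of lists, the GAS letters stood in 4 and 4 of 16 windows, the NF-kB consensus in 1 and 5, and TATAAA in 3 and 2. Such matches describe the letters and do not show that a factor binds.

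The libraries held 28984535 to 35842904 gene counts, and the siRNA target was lower. The mean for Hnrnpd was 297 ± 25.9 CPM in control and 187 ± 12.2 CPM in siHnrnpd (mean ± SD, n = 3 each). CPM are counts scaled to the TMM library size. The log2 change of Hnrnpd was -0.67 (edgeR adjusted p = 0.0426). That call was lost without any 1 library other than siHnrnpd 2 (adjusted p from 0.0508 to 0.319). The labelled origin was checked on auditory markers. Of 9 hair cell markers 3 passed the count filter, and the list summed to 34.35 to 42.0 CPM in control and 33.1 to 37.8 CPM in siHnrnpd, most of it Myo6, while Gfi1 had at most 1 count and Pou4f3 and Atoh1 had no row. Of 6 supporting cell markers 3 had a row, with sums of 19.65 to 22.6 and 18.2 to 23.5 CPM. Library siHnrnpd 3 stood apart in interferon response genes, and results that rest on it are given with and without it.

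Cxcl10 (ENSRNOG00000022256) was by far the most abundant of the 3. In control libraries 1, 2 and 3 it had 70131, 96509 and 111591 counts, or 2417, 3094 and 3089 CPM. That was 0.242%, 0.304% and 0.311% of all gene counts. In siHnrnpd 1, 2 and 3 it had 51698, 54641 and 34194 counts, or 1477, 1649 and 1047 CPM. Every siHnrnpd library lay below every control library, and siHnrnpd 3 was the lowest. The means were 2867 ± 389 and 1391 ± 310 CPM (SD, n = 3 each), a log2 difference of -1.04, which leaves 48.5% of the control level. Without siHnrnpd 3 the remaining share was 54.5%, and siHnrnpd 3 alone stood at 36.5%.

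Cxcl11 (ENSRNOG00000022298) was next in level. Controls 1, 2 and 3 had 772, 1054 and 977 counts, or 26.6, 33.8 and 27.0 CPM. The siHnrnpd libraries 1, 2 and 3 had 313, 431 and 170 counts, or 8.94, 13.0 and 5.21 CPM. The groups did not overlap, and the lowest control library, at 26.6 CPM, was well above the highest siHnrnpd library, at 13.0 CPM. The means were 29.2 ± 4.03 and 9.05 ± 3.90 CPM (SD, n = 3 each), a log2 difference of -1.69, or 31.1% of control. Without siHnrnpd 3 the share was 37.7%, and siHnrnpd 3 alone stood at 17.9%.

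Cxcl9 (ENSRNOG00000022242) was barely detected. The control libraries held 26, 34 and 43 of its counts and the siHnrnpd libraries 18, 20 and 5, which is 0.896, 1.09 and 1.19 CPM against 0.514, 0.604 and 0.153 CPM. The ranges were apart, but counting error alone is large here. The exact Poisson 95% interval of control 1 ran from 0.585 to 1.31 CPM and that of siHnrnpd 2 from 0.369 to 0.932 CPM, so these intervals overlap. For siHnrnpd 3, 5 counts allow 0.0497 to 0.357 CPM. These intervals cover counting error only, since the reads carry no stated molecular identifiers. The means were 1.06 ± 0.15 and 0.424 ± 0.239 CPM (SD, n = 3 each), or 40.0% of control, with a log2 difference of -1.31. Without siHnrnpd 3 the share was 52.8%, and the log2 difference was -0.94.

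**Figure D1:**
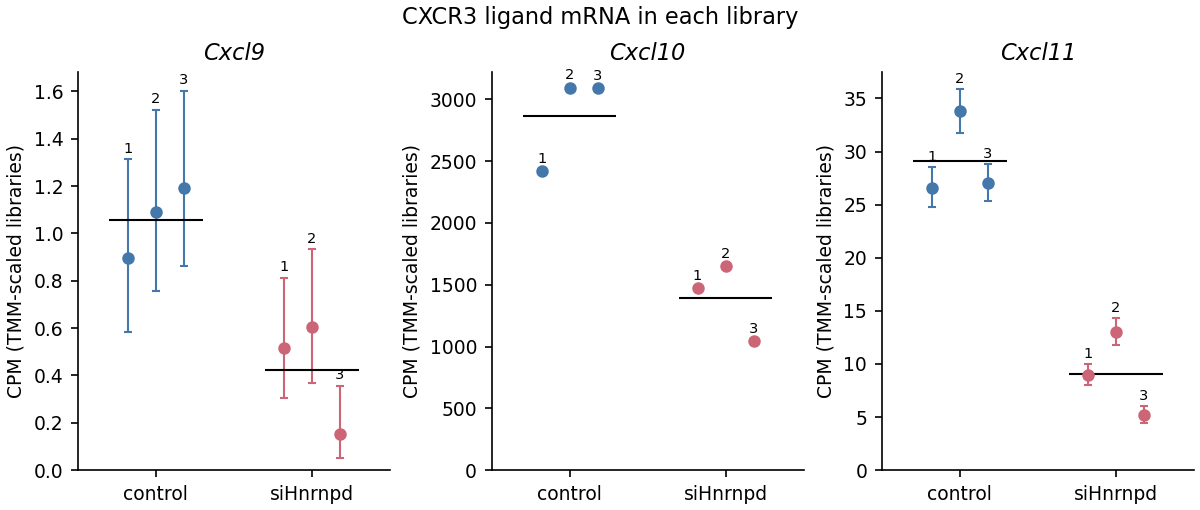
CPM of Cxcl9, Cxcl10 and Cxcl11 in each library (linear axes from 0), with the replicate number above each point, exact Poisson 95% intervals as bars and the group mean as a line. For each gene the 3 siHnrnpd points lie below the 3 control points, and siHnrnpd 3 is the lowest, at 1047 CPM for Cxcl10.

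All 3 ligands were thus lower in siHnrnpd with no overlap between the groups, a pattern that 8.57% of the 12268 genes tested share. All 3 also had a fitted log2 difference of -1 or less, as 0.391% of genes did. Because this contrast was known when the trio was picked, nothing is read from those counts. All 3 passed the filter on low counts, and Cxcl9 did so in spite of 5 counts in siHnrnpd 3. Within the siHnrnpd group the order was the same for each ligand: siHnrnpd 2 was highest, siHnrnpd 1 was next and siHnrnpd 3 was lowest. For Cxcl9 the order of siHnrnpd 2 and siHnrnpd 1 rests on 20 and 18 counts, whose exact Poisson intervals overlap. Hnrnpd itself had 177 CPM in siHnrnpd 1, 200.2 CPM in siHnrnpd 2 and 183 CPM in siHnrnpd 3. Its exact Poisson intervals in siHnrnpd 1 (172.3 to 181.1 CPM) and siHnrnpd 3 (178.3 to 187.7 CPM) overlap. Which of these libraries had the lowest Hnrnpd is therefore within counting error. Whether the ligand levels follow the level of Hnrnpd was not tested. Among controls, control 1 was lowest for each ligand. Control 3 was highest for Cxcl9 and control 2 for Cxcl11, while for Cxcl10 these 2 libraries were close and traded places between CPM and FPKM. In relative terms the control libraries spread alike, with a coefficient of variation of 14.1% for Cxcl9, 13.6% for Cxcl10 and 13.8% for Cxcl11. The siHnrnpd libraries had 56.3%, 22.3% and 43.1%, and without siHnrnpd 3 the remaining pair had 11.3%, 7.78% and 26.2%, so for Cxcl9 and Cxcl10 the wider spread rests on siHnrnpd 3. In these bulk samples, fewer cells that make a ligand and less mRNA per cell cannot be told apart.

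Levels of different genes can be compared only per length, by the authors' FPKM (fragments scaled to gene length and library size). On that scale Cxcl10 had 2153 ± 297 FPKM in control and 1054 ± 219.5 FPKM in siHnrnpd, Cxcl11 15.9 ± 1.996 and 4.99 ± 2.09, and Cxcl9 0.603 ± 0.090 and 0.240 ± 0.132 (SD, n = 3 each). By mean control FPKM, Cxcl10 ranked 46 among the 18628 genes of that table, Cxcl11 4196 and Cxcl9 10839. Of the summed FPKM of the trio, Cxcl10 made up 99.2% to 99.3% in control and 99.4% to 99.6% in siHnrnpd, so almost all of the measured CXCR3 ligand mRNA was Cxcl10 in both groups. The order Cxcl10, Cxcl11, Cxcl9 held in all 6 libraries, and no neighbours in it came near each other.

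The balance between the ligands differed between the groups as well. The FPKM ratio of Cxcl10 to Cxcl11 was 124.6, 125.6 and 157 in the control libraries and 226.5, 174 and 276 in the siHnrnpd libraries, in order of replicate number. All siHnrnpd ratios lay above all control ratios, which restates that Cxcl11 was lower in proportion than Cxcl10. The ratio of Cxcl11 to Cxcl9 was 28.5, 29.9 and 21.8 in control and 17.0, 20.9 and 32.6 in siHnrnpd, so there the groups overlapped. That second ratio rests on the few Cxcl9 counts.

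Cxcl10 was also the most abundant of all chemokines measured. Of 34 chemokine genes listed, 30 had a row and 16 passed the count filter. After Cxcl10, the highest control means were those of the monocyte chemokine Ccl2 with 363 ± 29.2 FPKM, the neutrophil chemokine Cxcl1 with 113 ± 1.93 FPKM and Ccl7, another monocyte chemokine, with 71.8 ± 5.51 FPKM (SD, n = 3 each). The lowest Cxcl10 control library, at 1812 FPKM, lay above the highest Ccl2 control library, at 393 FPKM. Cxcl11 came eighth with 15.9 FPKM, after Cxcl12 with 29.2 ± 1.17 FPKM and before Ccl20 with 9.89 ± 1.09 FPKM. The 3 control libraries of Cxcl11 did not overlap with those of either. Cxcl9 stood 15 of 16, between Ccl27 with 0.930 ± 0.225 FPKM and Ccl22 with 0.253 ± 0.035 FPKM. The Cxcl9 libraries, 0.51 to 0.69 FPKM, overlapped with those of Ccl27, 0.67 to 1.06 FPKM.

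**Figure D2:**
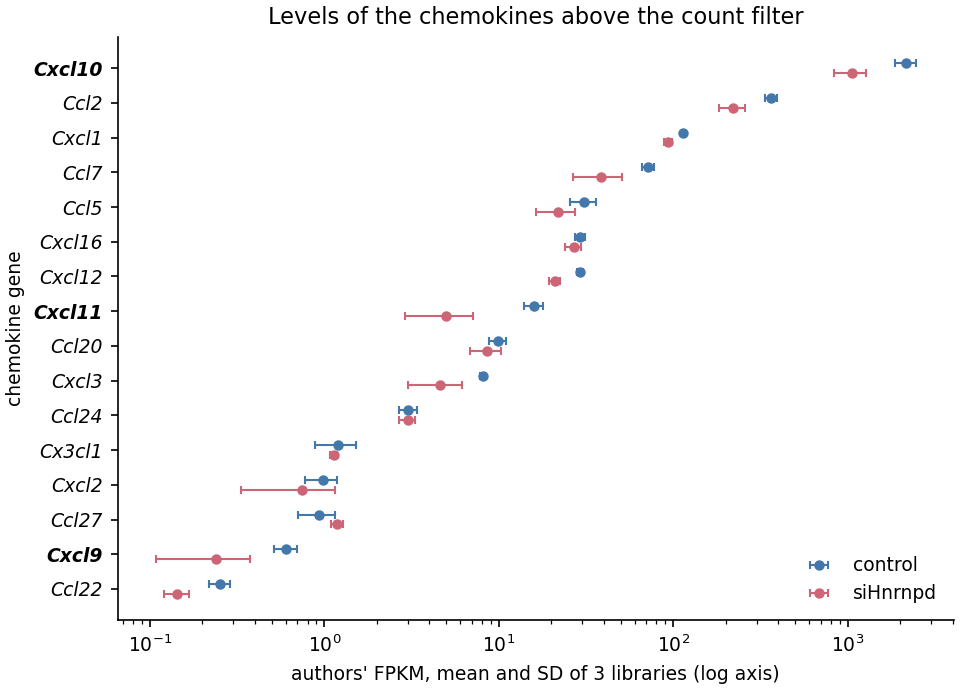
Authors' FPKM (log axis) of the 16 chemokine genes above the count filter, as mean and SD of 3 libraries in control and siHnrnpd, sorted by control mean. Cxcl10 stands at 2153 FPKM in control, above Ccl2 at 363 FPKM, and Cxcl9 is near the bottom at 0.603 FPKM.

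The other chemokines were read from the fit over all genes. None of the 13 tested passed (0 higher, 0 lower by edgeR at an adjusted p under 0.05, a call made in 0.0815% of all genes tested, 0.0571% lower and 0.0245% higher). At an unadjusted p under 0.05, 3 of 5 other CXC chemokines and 4 of 8 CC and CX3C chemokines were lower and 0 higher, against 5.20% and 5.84% of all genes. DESeq2 called 3 and 1 of them lower, against 0.934% of all genes. For Cxcl12, the ligand of CXCR4, the log2 value was -0.49 (edgeR adjusted p = 0.0676). Ccl2 had -0.74 (edgeR adjusted p = 0.0804), Ccl7 -0.90 (0.176), Cxcl3 -0.83 (0.261), Cxcl1 -0.29 (0.203), Ccl22 -0.84 (0.368) and Ccl5 -0.52 (0.368). Without siHnrnpd 3 the values were -0.43 for Cxcl12, -0.67 for Ccl2 and for Ccl7, -0.59 for Cxcl3, -0.25 for Cxcl1, -0.97 for Ccl22 and -0.33 for Ccl5. Cxcl16, which is made as a membrane-bound form, had -0.14 (0.646), or -0.053 without siHnrnpd 3. The medians were -0.40 and -0.37 for the 2 lists, against 0.0054 over all genes, and -0.25 and -0.24 without siHnrnpd 3.

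On the receptor side, the counts were low. Cxcr3 itself had 24, 27 and 39 counts in control and 47, 30 and 39 in siHnrnpd, with a log2 value of 0.31 and overlapping groups (edgeR adjusted p = 0.673). Counts of Ackr3, an atypical receptor that captures CXCL11 and CXCL12, were 18, 25 and 24 in control and 45, 37 and 39 in siHnrnpd. The siHnrnpd libraries of Ackr3 were all above its controls, as in 8.42% of all genes tested. Its log2 value of 0.78 did not pass (edgeR adjusted p = 0.280). Of the proteases that trim these chemokines, Dpp4 had 0 counts in every control and at most 3 in siHnrnpd, Mmp9 had 1 to 10 counts and Mmp12 0 to 2. Anpep, an aminopeptidase, had 28.6 ± 0.84 and 27.1 ± 4.19 CPM, and the convertase Furin had 128.5 ± 10.7 and 131 ± 7.78 CPM (SD, n = 3 each). Their log2 values were -0.077 and 0.024 (edgeR adjusted p = 0.832 and 0.937). Without siHnrnpd 3 Anpep had -0.0064, and the sign for Furin turned without either of control 1, control 2, siHnrnpd 1 or siHnrnpd 3. Ackr1 and Ackr2 had no row. By edgeR 0 of 4 tested genes of this list passed, against 0.0815% of all genes, and DESeq2 called 0. At an unadjusted p under 0.05, 1 was higher, against 5.84% of all genes.

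Heparan sulfate, the cell surface sugar on which these chemokines are held, was covered by 15 tested genes for its synthesis and core proteins. None passed by edgeR or DESeq2, and 1 was higher at an unadjusted p under 0.05, against 5.84% of all genes. The median was 0.075, and 0.0030 without siHnrnpd 3.

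Upstream, interferon mRNA was near the limit of detection. Ifnb1 had 1 to 4 counts per library, overlapping between the groups, and of the other 7 interferons listed, Ifng among them, no row was found. The receptors were present: Ifngr1, the ligand-binding chain for interferon-gamma, had 116 ± 0.63 and 124 ± 1.62 CPM (SD, n = 3 each), or 0.090 on the log2 scale (edgeR adjusted p = 0.598). Ifngr2 had -0.047 (0.854), Ifnar2 0.031 (0.919) and Il10rb, shared with other cytokines, -0.20 (0.323). The sign for Ifnar2 turned without control 3. None of the 6 receptor chains passed by edgeR or DESeq2, with 1 lower at an unadjusted p under 0.05, against 5.20% of all genes.

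Among 19 genes of JAK, STAT and IRF signalling, edgeR called 0 and DESeq2 called 2 lower, Irf1 and Stat2, against 0.934% of all genes. At an unadjusted p under 0.05, 4 were lower and 1 higher, against 5.20% and 5.84% of all genes. Irf1, a transcription factor induced by interferon-gamma, had 101 ± 6.75 and 73.2 ± 7.86 CPM, or -0.46 on the log2 scale (edgeR adjusted p = 0.133). Stat2 had 369 ± 27.5 and 253 ± 65.7 CPM, a log2 value of -0.55 (0.313) that was -0.36 without siHnrnpd 3, each as mean ± SD with n = 3. For Jak2, a kinase of the interferon-gamma receptor, it was -0.17 (0.436). The groups did not overlap in 7 genes that were lower and 2 that were higher, against 8.57% and 8.42% of all genes. The list median was -0.14, and -0.12 without siHnrnpd 3. Of 17 NF-kB genes, 0 passed by edgeR or DESeq2, and 1 was lower at an unadjusted p under 0.05, against 5.20% of all genes. The NF-kB median was 0.012, and -0.0074 without siHnrnpd 3. The inhibitors Nfkbia and Tnfaip3, both NF-kB targets themselves, had log2 values of -0.22 and -0.42 (edgeR adjusted p = 0.323 and 0.467), and Tnfaip3 had -0.68 without siHnrnpd 3. Of 11 genes that sense nucleic acids or relay that signal, 0 passed by edgeR or DESeq2. At an unadjusted p under 0.05, 2 were lower and 1 higher, against 5.20% and 5.84% of all genes. For Zbp1, a sensor that is itself interferon-induced, the log2 value was -1.59 on 0 to 34 counts (edgeR adjusted p = 0.373; -1.04 without siHnrnpd 3, which had the 0), and for the adaptor Traf3 it was 0.38 (0.323).

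Other genes that interferon induces lay on the same side as the ligands. Of 23 tested type I interferon response genes all had a negative log2 value, with a median of -0.92, and in 17 the groups did not overlap, against 8.57% of all genes. EdgeR called 0 and DESeq2 called 2 of them lower, Ddx58 and Xaf1, with 15 lower at an unadjusted p under 0.05, where the shares over all genes were 0.934% by DESeq2 and 5.20% by unadjusted p. Set against its control mean and averaged over the list, log2 CPM stood at -0.57 in siHnrnpd 1, -0.39 in siHnrnpd 2 and -2.14 in siHnrnpd 3. The controls stood at -0.15, 0.23 and -0.089. The same average over the 3 ligands was -1.20, -0.89 and -2.10 in siHnrnpd 1, 2 and 3. Without siHnrnpd 3 the type I median was -0.61, and Bst2 of that list turned from -0.34 to 0.16. Of 13 type II interferon response genes, 12 were negative, the median was -0.44 (-0.21 without siHnrnpd 3), and 7 were lower with no overlap, against 8.57% of all genes. Without siHnrnpd 3, Tap1 turned from -0.31 to 0.014 and Cd274 from -0.038 to 0.058.

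Gbp2 and Gbp5, guanylate-binding proteins of cell-intrinsic defence, fell by edgeR, with log2 changes of -1.19 (adjusted p = 0.0426) and -0.94 (0.0445), and DESeq2 called these and Psmb9 of the type II list lower. Over all genes, edgeR called 0.0571% lower and DESeq2 0.934%. Gbp2 counts were 1709, 2012 and 2160 in control and 963, 1049 and 698 in siHnrnpd. Across the alternatives the adjusted p of Gbp2 ran from 6.83e-17 to 0.319, and both calls were lost without control 1, control 2, control 3 or siHnrnpd 1, and that of Gbp5 also without siHnrnpd 3. Both were lost on log2(FPKM + 1), and that of Gbp5 also on log2(FPKM + 0.1) (limma adjusted p = 0.0762) and when scaled by the upper quartile (edgeR adjusted p = 0.0507). At an unadjusted p under 0.05, 6 genes of that list were lower, against 5.20% of all genes. Psmb9, an immunoproteasome subunit, had -0.58 (edgeR adjusted p = 0.322), Irgm, a GTPase, -0.79 (0.332), and the type I targets Xaf1 and Ifit3 -0.98 (0.241) and -0.94 (0.243). Without siHnrnpd 3 the values were -0.38 for Psmb9, -0.49 for Irgm, -0.72 for Xaf1 and -0.67 for Ifit3. Both lists were drawn up with earlier results of these data known, and several of their genes were seen to be lower then.

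**Figure D3:**
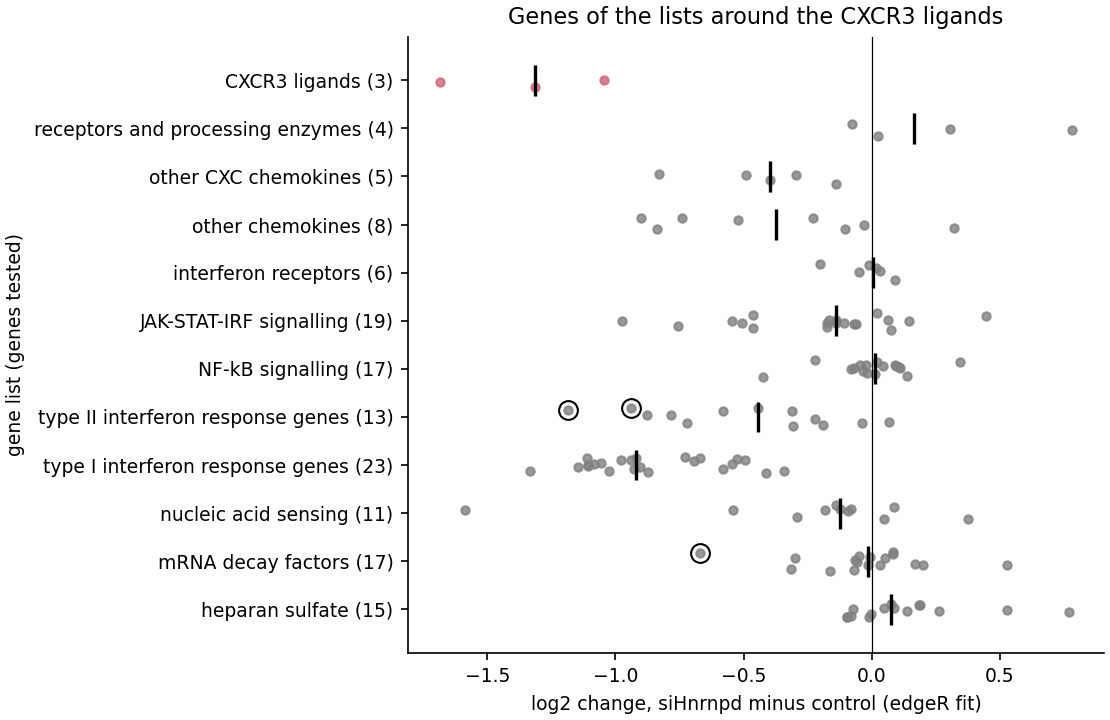
Fitted log2 change (siHnrnpd minus control) of the CXCR3 ligands (red) and of each tested gene on 11 lists (grey), with list medians as bars, and open circles around the 3 genes that edgeR called, Gbp2, Gbp5 and Hnrnpd. The type I interferon response genes lie to the left of 0 with a median of -0.92, while interferon receptors and NF-kB genes centre near 0.

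Proteins that act on AU-rich or stem-loop elements in chemokine mRNA were listed as well. Of 17 tested, edgeR called Hnrnpd alone, which is the siRNA target itself, and DESeq2 called 2 lower, Hnrnpd and Hnrnpab, and 1 higher, Hnrnpdl. Over all genes, edgeR called 0.0571% lower, and DESeq2 called 0.934% lower and 55 genes higher. Hnrnpdl, the closest relative of Hnrnpd, had 115.5 ± 8.08 and 166 ± 9.55 CPM (SD, n = 3 each), or 0.53 on the log2 scale (edgeR adjusted p = 0.0560), and Hnrnpab -0.30 (0.209). Reads of these similar genes may have been split between them. The list median was -0.015, and 0.0085 without siHnrnpd 3.

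To see which genes were most like each ligand, the log2 CPM of every gene with a mean of at least 5 CPM was set relative to its own control mean. The root mean square difference from the ligand over the 6 libraries was then taken, over 9176 genes. Closest to Cxcl10 were Gbp2 (0.145), Ccl7 (0.157), LOC498435, a gene described as similar to an ABC transporter (0.173), Ifit3 (0.185) and Gbp5 (0.199), where the median over all other genes was 0.792. Closest to Cxcl11 were Cmpk2, a mitochondrial nucleotide kinase (0.389), Ifit2 (0.401), Samd9l (0.438), Gbp2 (0.461) and Ifi44 (0.462), with a median of 1.32 over all genes. Closest to Cxcl9 were Cmpk2 (0.156), Ifit2 (0.179), Rtp4 (0.181), Samd9l (0.207) and Ifi44 (0.219), with a median of 1.10. Between the ligands the difference was 0.371 for Cxcl9 and Cxcl11, 0.384 for Cxcl9 and Cxcl10 and 0.546 for Cxcl10 and Cxcl11. Cxcl9 was closer to Cxcl11 than Cmpk2 was, but lay under the minimum of 5 CPM and so was not ranked. By likeness to Cxcl11, Cxcl10 ranked 10, and by likeness to Cxcl10, Cxcl11 ranked 161.

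Cxcl9 and Cxcl11 shared 4 of their 5 nearest genes, Cxcl10 and Cxcl11 shared 1, and Cxcl9 and Cxcl10 shared 0. In siHnrnpd 3 the log2 value was -1.44 for Cxcl10, -2.46 for Cxcl11 and -2.38 for Cxcl9, against -1.51 for Gbp2 and -2.15 for Cmpk2. In siHnrnpd 1 and 2 it was -0.95 and -0.79 for Cxcl10, close to the -0.95 and -0.74 of Cxcl9, while Cxcl11 stood at -1.69 and -1.15. These neighbours depend on single libraries: without siHnrnpd 3, 3 of the 5 were shared for Cxcl10, 2 for Cxcl11 and 1 for Cxcl9, and without siHnrnpd 1, 2 were shared for each. Leaving out any other library kept 3 to 5.

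**Figure D4:**
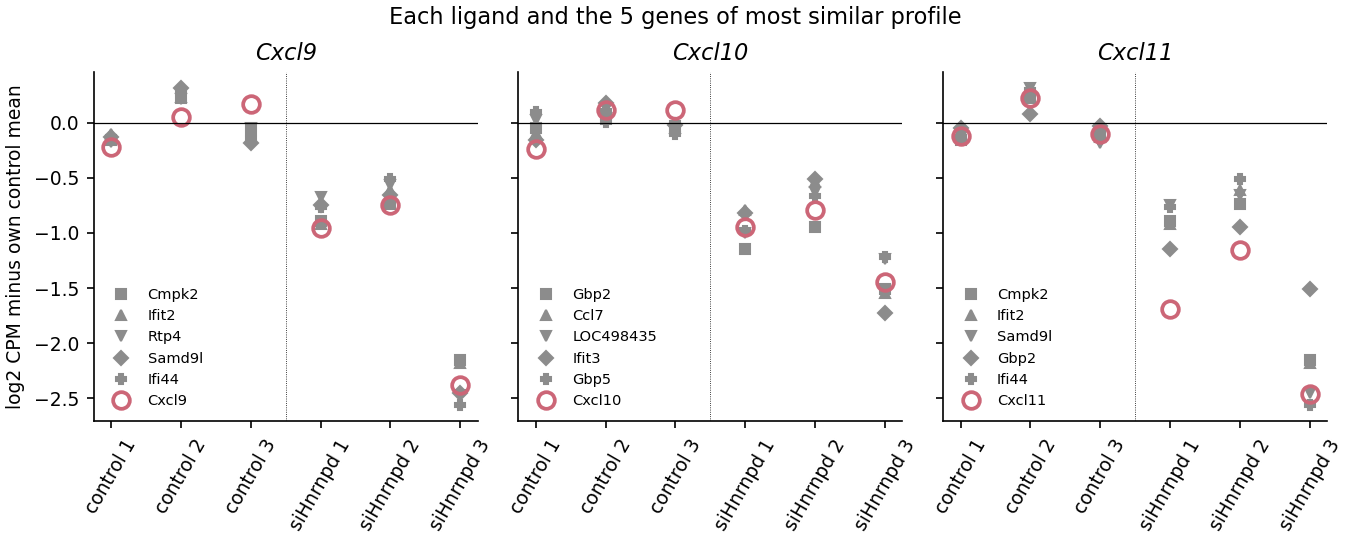
Log2 CPM of each ligand (open circles) and of its 5 nearest genes (grey), each relative to its own control mean, in the 6 libraries. In siHnrnpd 3 Cxcl10 lies at -1.44 beside Gbp2 at -1.51, and Cxcl9 and Cxcl11 lie at -2.38 and -2.46, nearer to Cmpk2 and Ifi44.

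On the chromosome, the genes on either side of the ligands had log2 values near or above 0. Art3, a member of the ADP-ribosyltransferase family, spans Cxcl11 and Cxcl10 on the opposite strand, and the strand setting of the counting is not given in the sources used here. Art3 had 0 to 10 counts per library, against at least 170 for Cxcl11 and 34194 for Cxcl10. Of the 10 nearest genes with a row, 5 on each side, 6 passed the count filter. By edgeR and DESeq2 0 of these 6 passed, with 1 higher at an unadjusted p under 0.05, against 5.84% of all genes. Stbd1, a glycogen-binding protein, was that gene, with 3.89 ± 0.20 and 6.03 ± 1.37 CPM (SD, n = 3 each) or 0.63 on the log2 scale (edgeR adjusted p = 0.273). The other 5 had log2 values from -0.057 to 0.12: the nucleoporin Nup54 -0.019, the lysosomal receptor Scarb2 0.0074, Sdad1, which is thought to act in ribosome assembly, 0.12, the Golgi tether Uso1 -0.057 and the stress granule protein G3bp2 0.0091. The signs for Nup54, Scarb2 and G3bp2 turned under other settings, while Uso1 and Sdad1 kept theirs in all that were run.

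**Figure D5:**
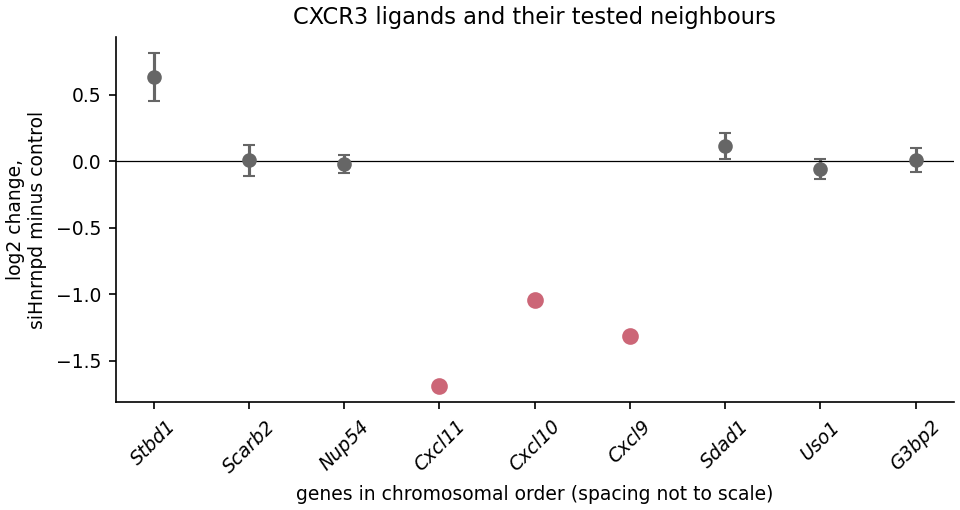
Fitted log2 change (siHnrnpd minus control) of the 3 ligands (red) and of their 6 tested neighbours (grey, with SE) in chromosomal order. The ligands lie between -1.69 and -1.04, and the neighbours between -0.057 and 0.63.

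Markers of other cells were checked because leukocytes and endothelium can also make these chemokines. Of 15 leukocyte markers, 11 had a row and 3 passed the filter. The pan-leukocyte marker Ptprc had at most 1 count per library, while the summed CPM of the list was 60.9 to 66.0 in control and 68.6 to 72.4 in siHnrnpd, most of it Cd14 (60.9 ± 2.62 and 67.4 ± 1.89 CPM; SD, n = 3 each). Cd14 had a log2 value of 0.15, Cd68 -0.11 and Lyz2 -0.46, and none passed by edgeR. Endothelial markers summed to 2.45 to 2.95 CPM in control and 2.35 to 3.43 CPM in siHnrnpd. Tek had 39 to 63 counts per library and Vwf 19 to 46, while Cdh5 had 1 to 6, Kdr at most 1 and Pecam1 no row. Fibroblast markers summed to 1971 to 2357 CPM in control and 2381 to 2799 CPM in siHnrnpd, the highest in siHnrnpd 3. Most of that sum was the single gene Col1a1. Col1a2 had only 3.16 ± 0.13 and 3.36 ± 0.56 CPM, Lum 8.17 ± 0.43 and 8.05 ± 0.64, and Pdgfra 39.7 ± 1.74 and 39.1 ± 1.84 (SD, n = 3 each). Dcn with 2 to 9 counts and Postn with 2 to 10 were below the filter. The part of other cells in the ligand levels was not tested.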

How the data were processed

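Total RNA of 6 HEI-OC1 libraries, 3 per group, was sequenced. Per the submitters' processing notes the authors aligned reads with TopHat2 and named the build mRatBN7.2. For the counter, its strand setting and the annotation nothing is given in the sources used here. The deposited tables hold whole-number, unnormalized read counts of 18718 genes and the authors' FPKM of 18628 genes. Columns were matched to samples by siRNA name and replicate number. No pair of libraries (of 15) agreed within sampling noise.

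EdgeR 4.0.16 (R 4.3.3) was run on the counts with TMM, filterByExpr, a quasi-likelihood test on group, and Benjamini-Hochberg adjustment over 12268 genes. Calls needed an adjusted p under 0.05. Log2 CPM used a prior count of 2. Promoter windows came from a RefSeq table of GRCr8 and were found for all 3 ligands by symbol. Alternatives were DESeq2 1.42.0, RLE and upper-quartile scaling, no filter, at least 50 counts in 3 libraries, the replicate block, leaving out each library, and limma 3.58.1 on log2(FPKM + 0.1) or log2(FPKM + 1), the second also without the minimum mean FPKM of 1. The pseudocount understates changes of low genes. The statistics were tested on simulated data.

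The ligands, the 12 pathway lists, the 5 marker lists and the rule for named genes were chosen with earlier results of these data known. The rule took the ligands, Hnrnpd, the receptor list, 10 chromosomal neighbours, up to 4 genes with the smallest p of each other list and the 5 nearest profiles per ligand. Not every gene it takes is named, and 1 is not reported here. Further chemokines, Ddx58, Bst2, Tap1, Cd274 and marker genes outside it are named for their level, sign or call, after their values were seen.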

Additional observations from a re-analysis of the deposited data

How the results depend on the processing

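The log2 difference was negative for each of the 3 ligands in every alternative that gave a value. Leaving out 1 library gave -1.64 to -0.94 for Cxcl9, -1.18 to -0.89 for Cxcl10 and -2.04 to -1.42 for Cxcl11. On log2(FPKM + 1) without a minimum Cxcl9 had -0.37, where the pseudocount exceeds its level. Cxcl9 lay under the minimum FPKM and under the filter of at least 50 counts, so those settings gave no value for it. The labels do not say whether equal replicate numbers mark pairs. Correlations of deviations from the group means were -0.26, 0.14 and 0.10 for numbers 1 to 3, and -0.33 to 0.23 for unlike numbers. With deviations tied to means of 3 libraries, these values cannot decide whether the libraries were paired. With the replicate block the ligands had -1.35 (Cxcl9), -1.06 (Cxcl10) and -1.75 (Cxcl11), Hnrnpd had -0.67 (edgeR adjusted p = 0.0873), Gbp2 and Gbp5 lost their calls (0.0542 and 0.0688), and 0 genes were called, with 547 lower and 515 higher at an unadjusted p under 0.05.

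Counts of calls moved. Over all genes edgeR called 7 lower and 3 higher, DESeq2 107 and 55, edgeR without a filter 101 and 46, and with at least 50 counts 5 higher. Upper-quartile scaling called 3 lower. Limma called 0 and 0 on log2(FPKM + 1) with the minimum (478 lower and 679 higher at an unadjusted p under 0.05), 0 and 0 without it (684 and 920), and 4 and 1 on log2(FPKM + 0.1). Leaving out 1 library gave 0 to 7 lower and 0 to 7 higher, with 0 lower without control 1, 2 or 3 (545, 359 and 823 at an unadjusted p under 0.05). Over all genes, edgeR called 0.0571% lower and 0.0245% higher, with 5.20% and 5.84% at an unadjusted p under 0.05. Of the 138 pathway list genes tested, 38 were lower and 5 higher at an unadjusted p under 0.05. EdgeR called 3 of these 138 lower, the siRNA target Hnrnpd among them, and 0 higher. That became 13 and 1 with DESeq2, 21 and 1 without a filter, 1 higher with at least 50 counts, 0 lower with the replicate block and on log2(FPKM + 1) with or without a minimum, and 0 to 4 lower leaving out 1 library. Hnrnpd had -0.65 on log2(FPKM + 1) with or without a minimum (limma adjusted p = 0.0508 and 0.137), and -0.74 to -0.63 leaving out 1 library. The signs of small values turned: Scarb2 was -0.0014 with at least 50 counts, and leaving out 1 library gave -0.079 to 0.11 for Scarb2, -0.028 to 0.095 for Furin, -0.086 to 0.060 for G3bp2, -0.019 to 0.079 for Ifnar2 and -0.054 to 0.018 for Nup54. The causes were not tested.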
